A study of Homo sapiens with 23 samples.

Results

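The 10 genes described here, the AP-1 and immediate early genes, were FOS, FOSB, FOSL1, FOSL2, JUN, JUNB, JUND, ATF3, EGR1 and ARC. They were taken as a named list and found by symbol, and all 10 were present in both tables of counts, among 61806 genes for the first libraries and 42901 for the deep libraries. The study depleted THUMPD3, a methyltransferase that modifies guanosines of tRNA, from A549 cells, an established human lung adenocarcinoma line, and sequenced total RNA after removal of ribosomal RNA. The 17 first libraries held 3 knockdowns, each with controls of its own, and 6 deep libraries repeated 1 of the knockdowns. In siD3 #3 the cells were transfected with an siRNA against THUMPD3 and harvested on day 5 (n = 3), with siControl as the comparison (n = 2 here). In shD3 #1 and shD3 #4 the cells carried a lentiviral, doxycycline-inducible shRNA against THUMPD3, selected with puromycin, and were harvested on day 6 (n = 3 each), with sh1Control and sh4Control (n = 3 each) as the comparisons. All control libraries were labelled WT and all others as THUMPD3 knockdown. The study's methods call the control samples untreated and the knockdown samples treated, without saying whether sh1Control and sh4Control carried the construct and went without doxycycline. Whether a selected line was 1 clone or a pool was not given in the sources used here. The deep libraries held shD3 #1 and sh1Control (n = 3 each), and their harvest day was not stated separately. Replicates were labelled as biological, but nothing stated that they came from separate cultures, so p-values measure the spread between these libraries, which may in part be technical.

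AP-1 is a dimer of basic leucine zipper proteins. Proteins of the JUN family can pair with themselves or with proteins of the FOS and ATF families, and the dimers bind short palindromic elements in promoters and enhancers. FOS, FOSB, EGR1, ATF3 and ARC are classical immediate early genes: their transcription starts within minutes of serum, growth factor or stress signals, needs no new protein synthesis, and their mRNAs decay fast. Much of this signal runs from the MAP kinases ERK and JNK to serum response factor (SRF) with its ternary complex partners, and to CREB, ATF and JUN proteins already bound at the promoter. FOSL1 is a later ERK-dependent member, known from invasive carcinoma cells, whereas FOSL2 and JUND are present in many unstimulated cells.

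In each comparison the THUMPD3 transcript was lower in all knockdown libraries than in all controls. It stood at 51.1% of control in shD3 #1, 31.4% in shD3 #4, 17.1% in siD3 #3 and 49.6% in the deep shD3 #1 libraries (edgeR adjusted p of 6.88e-06 or less). Of its exonic bases, 20.3% overlap other genes, THUMPD3-AS1 among them, on the opposite strand. Total counts per library were 9854294 to 22101059 in the first libraries and 27285889 to 59974740 in the deep libraries. Levels below are in cpm after TMM scaling within a comparison, with SD between libraries where given. Calls rest on edgeR's quasi-likelihood test and needed an adjusted p under 0.05 and a change of at least 1.5-fold, the fold threshold below. In bulk RNA, more cells with a transcript and more transcript per cell cannot be told apart.

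The 10 genes went in different directions in the 3 knockdowns. In shD3 #1, 8 of the 10 rose: ARC, FOSB, EGR1, ATF3, JUN, FOSL1, FOS and JUNB. In shD3 #4, 3 of the 8 genes tested fell, EGR1, FOSL1 and JUN, each of which rose in shD3 #1. In siD3 #3, 4 of the 10 rose: ARC, FOSB, ATF3 and JUN. JUND was not called in any of the 3, and neither was FOSL2.

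Among all genes tested in shD3 #1, 14.5% were called higher and 14.6% lower. For shD3 #4 these shares were 8.00% and 4.49%, and for siD3 #3 they were 12.5% and 9.42%. The members called higher were 8 of 10 in shD3 #1 and 4 of 10 in siD3 #3, and in shD3 #4 3 of 8 were called lower. Each of these counts lay above the share over all genes. The list is short, however, and was chosen with earlier results of these data known. Several members also moved together, so the counts do not test an excess over the background. The median log2 fold change of the members tested came to 1.85 for shD3 #1, -0.55 for shD3 #4 and 0.93 for siD3 #3, beside -0.01, 0.01 and 0.03 over all genes tested. With edgeR, 0 members were called lower in shD3 #1 (1 at an unadjusted p under 0.05, 0 by DESeq2), 0 higher in shD3 #4 (1 and 0) and 0 lower in siD3 #3 (0 and 0).

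**Figure D1:**
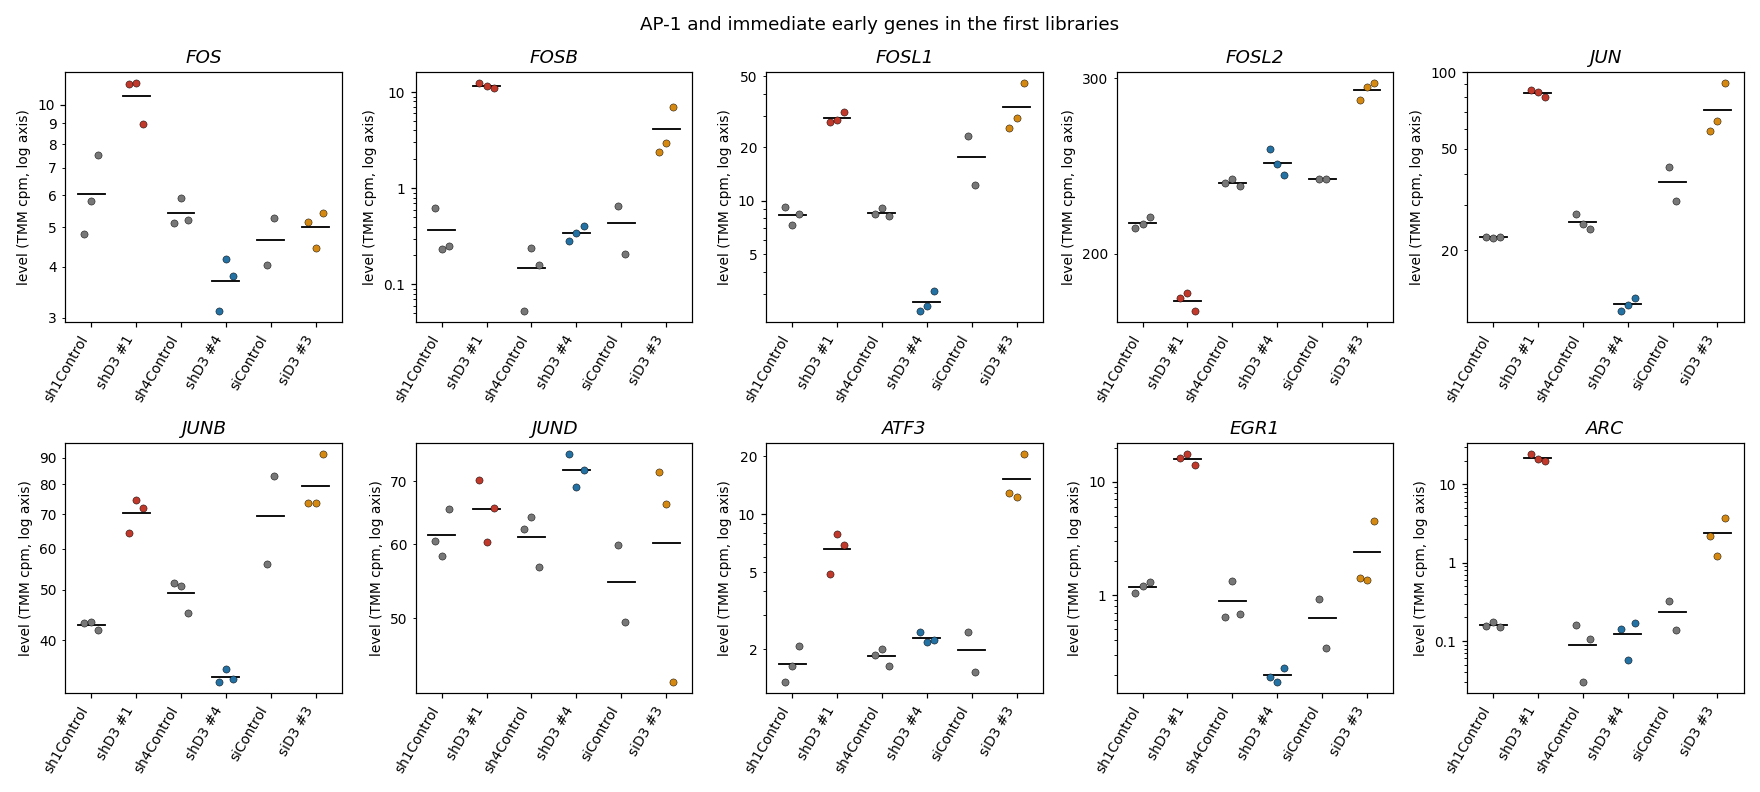
Level of each of the 10 genes in every first library (points; TMM cpm, log axis, a separate scale per gene) in the 3 control groups (grey) and the 3 knockdowns (colours), with the group mean as a bar; the single library at 0 cpm, sh4Control for ARC, is drawn at the foot of its panel. The shD3 #1 points of FOSB, EGR1 and ARC lie more than 10-fold above those of sh1Control, the shD3 #4 points of FOSL1, JUN and EGR1 lie below all sh4Control points, and JUND shows no such separation in shD3 #1 or siD3 #3.

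The sequences upstream of the start sites are shown for members that moved together in shD3 #1 (EGR1, FOS, FOSB, JUN and ATF3) and for JUND, which was not called in the first libraries. They are the 250 bases before the start of transcription in RefSeq (GRCh38.p14), 5′ to 3′ on the strand of the gene. Capitals mark TGACG, the core of the cAMP response element, or its reverse complement; TGACGTCA, the full element; TGACATCA, an AP-1 and ATF type of element; and the CArG box, to which SRF binds. Windows are chr5:138465229-138465478 (plus strand) for EGR1, chr14:75278578-75278827 (plus) for FOS, chr19:45467746-45467995 (plus) for FOSB, chr1:58784048-58784297 (minus) for JUN, chr1:212565157-212565406 (plus) for ATF3 and chr19:18281623-18281872 (minus) for JUND.
EGR1: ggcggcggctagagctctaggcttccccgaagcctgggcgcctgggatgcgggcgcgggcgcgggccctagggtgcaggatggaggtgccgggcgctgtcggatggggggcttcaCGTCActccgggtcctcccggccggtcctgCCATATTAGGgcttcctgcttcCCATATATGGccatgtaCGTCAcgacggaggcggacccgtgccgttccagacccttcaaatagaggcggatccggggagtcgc
FOS: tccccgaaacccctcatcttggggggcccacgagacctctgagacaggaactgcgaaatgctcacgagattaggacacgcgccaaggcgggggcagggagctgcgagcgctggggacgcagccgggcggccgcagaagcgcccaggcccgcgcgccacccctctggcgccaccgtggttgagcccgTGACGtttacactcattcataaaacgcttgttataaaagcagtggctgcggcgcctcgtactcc
FOSB: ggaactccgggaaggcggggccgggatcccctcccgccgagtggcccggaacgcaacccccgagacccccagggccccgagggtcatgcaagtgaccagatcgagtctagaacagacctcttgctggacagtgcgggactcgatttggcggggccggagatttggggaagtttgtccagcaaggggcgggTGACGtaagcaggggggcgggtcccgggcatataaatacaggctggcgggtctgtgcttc
JUN: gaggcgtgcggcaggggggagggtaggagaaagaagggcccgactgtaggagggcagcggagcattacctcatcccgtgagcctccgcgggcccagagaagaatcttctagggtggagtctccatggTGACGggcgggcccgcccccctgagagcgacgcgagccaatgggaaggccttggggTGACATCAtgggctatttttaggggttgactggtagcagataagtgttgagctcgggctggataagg
ATF3: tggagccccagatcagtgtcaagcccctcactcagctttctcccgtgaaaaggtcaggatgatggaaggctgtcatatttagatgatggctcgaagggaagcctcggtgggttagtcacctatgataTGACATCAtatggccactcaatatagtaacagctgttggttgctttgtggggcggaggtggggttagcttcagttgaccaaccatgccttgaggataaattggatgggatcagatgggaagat
JUND: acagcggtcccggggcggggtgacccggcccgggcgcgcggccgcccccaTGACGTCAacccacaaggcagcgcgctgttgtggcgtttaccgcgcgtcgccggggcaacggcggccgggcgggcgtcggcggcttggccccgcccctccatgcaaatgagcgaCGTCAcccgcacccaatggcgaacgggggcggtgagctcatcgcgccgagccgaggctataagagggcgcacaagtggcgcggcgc

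Motifs were searched in 9 RefSeq windows of 8 of the members, with a second start for ATF3. That second window (chr1:212614768-212615067) lies inside the ATF3 gene. Its bases before the start end in tctttcag and those after it begin with caaaatgatg. These letters are like an intron end followed by a start codon, so this window may not be a promoter. The bases between the ATF3 windows were not searched. FOSL1 and ARC were not searched. Both strands were read in the full window from 250 bases before to 50 bases after each start, with base -1 just before the start. Within these windows EGR1 was the member with a CArG box, of which it had a pair (bases -105 to -96 and -83 to -74). Of all 35116 RefSeq promoters, 1.29% held one. Bases further upstream were not searched, so boxes that lie there would have been missed in any member. TGACG stood in 7 of the 9 windows and in 24.6% of all promoters; it is contained in TGACGTCA, which stood in JUND (bases -200 to -193) and in 1.85% of all promoters. TGACATCA stood in JUN (bases -67 to -60) and ATF3 (bases -123 to -116), and in 2.61% of all promoters. TGAGTCA, the AP-1 element itself, stood in FOSL2 alone among the members searched (bases 5 to 11 after the start) and in 4.95% of all promoters. TATAAA was found in FOS, FOSB, JUNB and the second window of ATF3, which lies inside the gene, and in 11.5% of all promoters. The ETS core CCGGAA stood in FOSB and in 17.2% of all promoters. The EGR elements GCGTGGGCG and GCGGGGGCG, in 0.795% and 5.07% of all promoters, stood in none of the 9 windows. Of the windows printed above, those of EGR1, FOS, FOSB, JUN and JUND held TGACG and that of ATF3 did not. The element was thus present both in members that rose in shD3 #1 and in JUND. For ATF3 its absence holds for the windows searched only, and a start between them could have been missed. These matches describe the letters of the windows only.

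The genes are protein coding and lie apart from each other in GRCh38 (GENCODE 44): FOS at chr14:75278826-75282230 (plus strand, ENSG00000170345.10), FOSB at chr19:45467995-45475179 (plus strand, ENSG00000125740.15), FOSL1 at chr11:65892049-65900573 (minus strand, ENSG00000175592.9), FOSL2 at chr2:28392448-28417317 (plus strand, ENSG00000075426.12), JUN at chr1:58776845-58784048 (minus strand, ENSG00000177606.9), JUNB at chr19:12791486-12793315 (plus strand, ENSG00000171223.6), JUND at chr19:18279694-18281622 (minus strand, ENSG00000130522.6), ATF3 at chr1:212565334-212620777 (plus strand, ENSG00000162772.18) and EGR1 at chr5:138465479-138469303 (plus strand, ENSG00000120738.8). Their counts sum over all exons, so the values below say nothing of single isoforms such as the short form of FOSB.

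Within the FOS family the members differed from each other. FOS, the founding partner of JUN, was at 4.83, 5.80 and 7.51 cpm in the sh1Control libraries and at 11.2, 11.3 and 8.96 cpm in shD3 #1. All shD3 #1 libraries lay above all controls, and FOS rose by a log2 fold change of 0.81 ± 0.15 (SE; adjusted p = 2.70e-04). In shD3 #4 it was at 3.12, 4.19 and 3.79 cpm, below the sh4Control libraries at 5.11, 5.91 and 5.21 cpm. The log2 fold change of -0.56 ± 0.15 (adjusted p = 0.00305) lay just short of the fold threshold and passed it in 4 of the 6 fits that left out 1 library: -0.61 without sh4Control replicate 1, -0.60 without sh4Control replicate 3, -0.66 without shD3 #4 replicate 2 and -0.59 without shD3 #4 replicate 3. In siD3 #3 the libraries at 5.14, 4.45 and 5.43 cpm overlapped those of siControl at 4.03 and 5.27 cpm (log2 fold change 0.12 ± 0.20, adjusted p = 0.689).

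FOSB, a partner of JUN proteins that is barely present in unstimulated cells, had some of the largest changes. It was at 0.623, 0.232 and 0.252 cpm in sh1Control (4 to 12 counts a library) and at 12.4, 11.7 and 11.1 cpm in shD3 #1, a rise of 4.95 ± 0.23 on the log2 scale (31.0-fold, adjusted p = 5.90e-11), the place 21 from the top among 16456 genes tested. In siD3 #3 it was at 2.41, 2.97 and 7.02 cpm against 0.654 and 0.208 cpm in siControl. All siD3 #3 libraries lay above both controls (log2 fold change 3.18 ± 0.66, adjusted p = 0.00899). The third library was more than 2 times as high as the others. Without siControl replicate 2 the log2 fold change was 2.64 with an adjusted p of 0.0721. In shD3 #4 FOSB had 6 to 7 counts a library and in sh4Control 1 to 5, too few to be tested. The ratio of the summed counts was 2.21 with an exact 95% interval of 0.955 to 5.56, which covers counting error only.

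FOSL1 (FRA-1) went up in one shRNA line and down in the other. Its levels were 9.29, 7.31 and 8.42 cpm in sh1Control and 27.8, 28.3 and 31.8 cpm in shD3 #1, a rise of 1.80 ± 0.10 on the log2 scale (3.48-fold, adjusted p = 4.83e-10). They were 8.41, 9.11 and 8.21 cpm in sh4Control and 2.41, 2.58 and 3.10 cpm in shD3 #4, where the log2 fold change was -1.68 ± 0.14 (31.3% of control, adjusted p = 4.11e-10). The control libraries of both lines lay between 7.31 and 9.29 cpm, each scaled within its own comparison, with shD3 #1 wholly above and shD3 #4 wholly below its own controls. The siD3 #3 libraries were at 25.7, 29.2 and 45.8 cpm against 23.1 and 12.3 cpm in siControl. The controls differed between themselves by almost as much as the groups did, and the log2 fold change of 0.91 ± 0.31 was not called (adjusted p = 0.0581). FOSL1 was called there by DESeq2 (0.89, adjusted p = 0.0178), in the fit of all 17 libraries (0.90, adjusted p = 0.00146), without siControl replicate 1 (1.45, adjusted p = 0.0379) and without siD3 #3 replicate 1 (1.09, adjusted p = 0.0407). It was lower and not called without siControl replicate 2 (0.53, adjusted p = 0.305) and without siD3 #3 replicate 3 (0.60, adjusted p = 0.0514).

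FOSL2 (FRA-2) had the highest cpm of the members in every first group and stayed under the fold threshold in all comparisons. It was at 212, 214 and 218 cpm in sh1Control and 181, 182 and 175 cpm in shD3 #1, a log2 fold change of -0.26 ± 0.06 (adjusted p = 8.89e-04) that is opposite in sign to the other FOS genes in shD3 #1 and smaller than the fold threshold. In siD3 #3 it was at 286, 294 and 297 cpm, against 237 cpm in both siControl libraries (0.30 ± 0.09, adjusted p = 0.0312), and in shD3 #4 at 255, 246 and 240 cpm against 235, 238 and 234 cpm (0.07 ± 0.06, adjusted p = 0.411). Its replicates lay close together in shD3 #1, where the SD of log2 cpm was 0.03, smaller than in all but 5.10% of genes tested. Genes with a smaller SD made up 3.63% in siD3 #3, 14.8% in shD3 #4 and 30.1% in deep shD3 #1.

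In the JUN family, JUN had the largest log2 fold changes in the 3 first comparisons. JUN, whose protein is the main activating partner in AP-1 and stimulates its own promoter, was at 22.4, 22.2 and 22.6 cpm in sh1Control and 85.5, 83.7 and 80.1 cpm in shD3 #1 (log2 fold change 1.89 ± 0.07, 3.71-fold, adjusted p = 4.88e-12). In shD3 #4 it was at 11.5, 12.2 and 13.0 cpm against 27.7, 25.2 and 24.2 cpm in sh4Control (-1.08 ± 0.08, 47.4% of control, adjusted p = 1.74e-10). For siD3 #3 the levels were 58.7, 64.5 and 90.7 cpm, against 42.5 and 31.3 cpm in siControl (0.95 ± 0.21, 1.93-fold, adjusted p = 0.0112). In each comparison no knockdown library overlapped a control, and JUN was the only member called in all 3, higher in shD3 #1 and siD3 #3 and lower in shD3 #4. The call in siD3 #3 depended on siControl replicate 2: leaving it out gave 0.73 (adjusted p = 0.0963).

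JUNB, a weaker activator that can oppose JUN in growth control, had the same signs with smaller sizes in the shRNA lines. It rose from 43.2, 43.4 and 41.7 cpm in sh1Control to 64.5, 74.5 and 72.1 cpm in shD3 #1 (log2 fold change 0.72 ± 0.07, adjusted p = 3.37e-07). In shD3 #4 it was at 33.2, 35.2 and 33.6 cpm, below all sh4Control libraries at 51.7, 51.0 and 45.1 cpm, but the log2 fold change of -0.54 ± 0.07 (adjusted p = 9.74e-07) was under the fold threshold and passed it without sh4Control replicate 3 (-0.60). In siD3 #3 the groups overlapped, with 73.6, 73.5 and 91.4 cpm against 56.2 and 83.1 cpm (0.19 ± 0.17, adjusted p = 0.430). Of the exonic bases of JUNB, 14.15% overlap HOOK2 on the opposite strand in GENCODE 44; the other members share no exonic base with another gene there, and the strand setting of the counting was not given in the sources used here.

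JUND, a widely present member that restrains growth in resting cells, was not called in any of the 3 first comparisons. It was at 60.5, 58.2 and 65.4 cpm in sh1Control and 70.2, 60.2 and 65.6 cpm in shD3 #1, which overlap (log2 fold change 0.09 ± 0.07, adjusted p = 0.332). The log2 fold change was 0.24 ± 0.07 in shD3 #4 (adjusted p = 0.00525), where all libraries (69.1 to 74.7 cpm) lay above those of sh4Control (56.8 to 64.1 cpm). In siD3 #3 it was 0.14 ± 0.21 (adjusted p = 0.650), with the third library at 42.8 cpm, below both controls at 59.8 and 49.5 cpm, and the others at 71.7 and 66.2 cpm, above them.

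ATF3, a stress-induced bZIP protein that pairs with JUN proteins, rose in shD3 #1 and siD3 #3. It was at 1.35, 1.62 and 2.07 cpm in sh1Control and 4.89, 7.93 and 6.92 cpm in shD3 #1 (log2 fold change 1.97 ± 0.21, 3.91-fold, adjusted p = 1.10e-06). In siD3 #3 it was at 12.9, 12.3 and 20.4 cpm against 2.45 and 1.52 cpm in siControl (2.91 ± 0.32, 7.51-fold, adjusted p = 4.73e-04), and it was the member whose call in siD3 #3 held in all 5 fits that left out 1 library, with log2 fold changes of 2.62 to 3.31. In shD3 #4 it was at 2.46, 2.18 and 2.24 cpm against 1.86, 2.00 and 1.63 cpm (0.32 ± 0.20, adjusted p = 0.200), not called.

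EGR1, a zinc finger protein that links growth factor signals to later genes, rose in one shRNA line and fell in the other. It was at 1.04, 1.22 and 1.31 cpm in sh1Control and 16.1, 17.5 and 14.1 cpm in shD3 #1 (log2 fold change 3.75 ± 0.15, 13.4-fold, adjusted p = 2.31e-11). In sh4Control it was at 0.639, 1.34 and 0.684 cpm and in shD3 #4 at 0.189, 0.172 and 0.229 cpm (-2.16 ± 0.45, 22.4% of control, adjusted p = 3.48e-04), the place 5 from the bottom among 16493 genes tested. That fall rests on 11 counts over the 3 shD3 #4 libraries and 53 over the controls, a ratio of 0.218 with an exact 95% interval of 0.103 to 0.422, which covers counting error only. The siD3 #3 libraries were at 1.42, 1.37 and 4.48 cpm against 0.926 and 0.346 cpm; all lay above the controls, but the third library was more than 3 times as high as the others, and the log2 fold change of 1.87 ± 0.69 was not called (adjusted p = 0.0721). It was called by DESeq2 (1.87, adjusted p = 0.0324) and in the fit of all 17 libraries (1.86, adjusted p = 0.00501). Leaving out 1 library gave 1.05 (without siD3 #3 replicate 3) to 2.78 (without siControl replicate 1), called in none of these 5 fits.

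The relatives of EGR1 were followed as a list of 8 genes, the EGR and NR4A families with the EGR corepressors NAB1 and NAB2. EGR3, also an immediate early gene, was at 0 counts in all 3 sh1Control libraries and at 2.08, 2.39 and 1.53 cpm in shD3 #1 (15 to 45 counts), at least 12.5-fold higher when each control is set to a floor of 3 counts (adjusted p = 2.71e-07). EGR2 was at 1.00, 0.319 and 0.407 cpm in shD3 #1 and at 0 to 0.0580 cpm in sh1Control, and was not tested; EGR4 had at most 1 count in those libraries. The nuclear receptors of the NR4A family, immediate early genes themselves, did not follow EGR1. NR4A1 fell from 19.9, 24.6 and 28.1 cpm in sh1Control to 15.0, 16.7 and 12.4 cpm in shD3 #1 (-0.69 ± 0.12, adjusted p = 1.80e-04). NR4A3 fell by 0.85 ± 0.24 on the log2 scale (adjusted p = 0.00668). NR4A2, at -0.47 ± 0.18 (adjusted p = 0.0407), was under the fold threshold there. In shD3 #4, where EGR1 fell, NR4A2 and NR4A3 rose (0.67 ± 0.14 and 0.83 ± 0.17, adjusted p = 3.77e-04 and 3.97e-04), and NR4A1 was not called (-0.07 ± 0.07). In siD3 #3, NR4A2 and NR4A3 rose (0.87 ± 0.21 and 1.45 ± 0.40, adjusted p = 0.0152 and 0.0261) and NR4A1 fell by 0.65 ± 0.20 (adjusted p = 0.0402). NAB1 (-0.11 to 0.31) and NAB2 (-0.23 to 0.38) were not called in these 3 comparisons. In the deep libraries 1 gene of the list was called, EGR4, which fell from 1.22, 0.456 and 1.03 cpm to 0.130, 0.183 and 0.138 cpm (-2.59 ± 0.46, adjusted p = 2.07e-04), while EGR3 was at -0.16 ± 0.12 (adjusted p = 0.249).

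ARC, a synaptic gene best known from neurons and a standard immediate early marker there, had the largest fold change of the members. It had 3 counts in each sh1Control library (0.156, 0.174 and 0.151 cpm) and 194 to 395 counts in shD3 #1 (24.0, 21.0 and 19.8 cpm), a log2 fold change of 7.02 ± 0.20 (adjusted p = 7.13e-13), the place 7 from the top among the genes tested. The ratio of summed counts was 136, with an exact 95% interval of 71.5 to 299 from counting error alone. With the siRNA, ARC was at 2.22, 1.199 and 3.73 cpm against 0.327 and 0.139 cpm in siControl (3.27 ± 0.66, adjusted p = 0.00782; count ratio 9.97, interval 4.93 to 23.5). Without siControl replicate 2 the log2 fold change was 2.84 with an adjusted p of 0.0657. In shD3 #4 and sh4Control it had 0 to 3 counts a library, and a difference was not detectable at this depth (count ratio 1.47, interval 0.401 to 5.87).

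**Figure D2:**
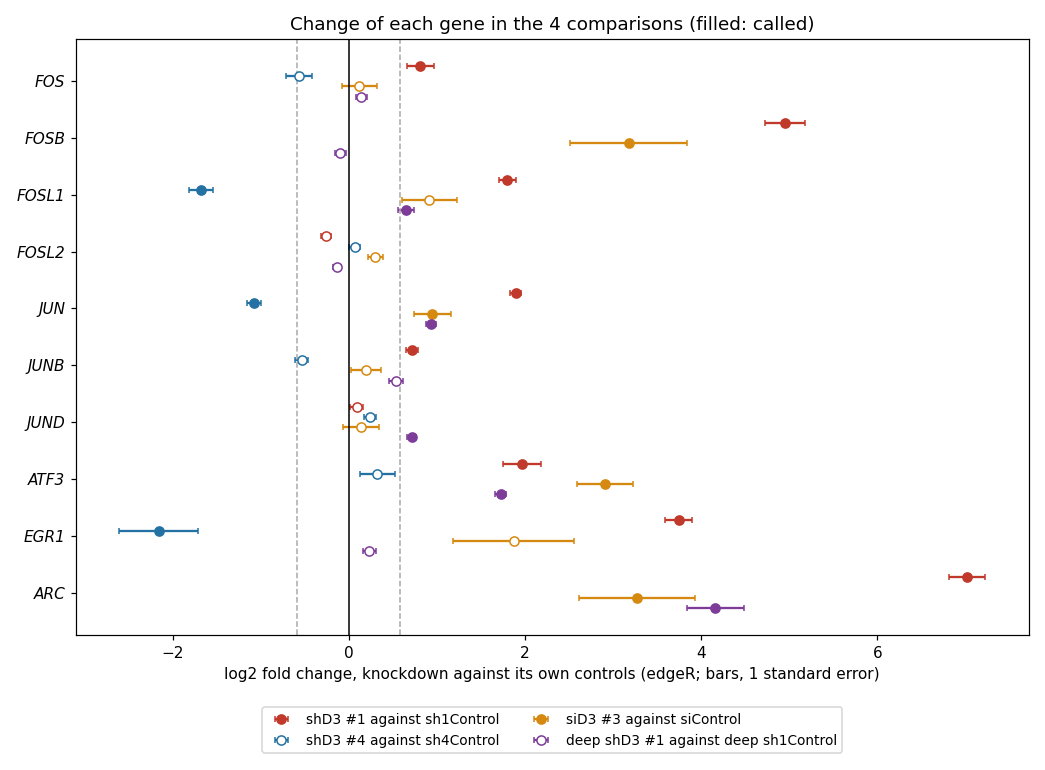
Log2 fold change (x axis; bars, 1 SE) of each of the 10 genes in each of the 4 comparisons (colours), from edgeR, filled where the gene was called and with dashed lines at the 1.5-fold threshold; FOSB and ARC were not tested in shD3 #4. FOSL1, JUN and EGR1 have filled points on opposite sides of 0 in shD3 #1 and shD3 #4, and FOSL2 stays within the dashed lines in all 4 comparisons.

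Whether the knockdowns differed was tested itself, in 1 model of the 17 first libraries with a separate effect for each knockdown. At an adjusted p under 0.05, 9 of the 10 members had effects that differed among the 3 knockdowns, JUND being the exception (adjusted p = 0.755), while 52.4% of all 18672 genes tested did. Between shD3 #1 and shD3 #4 the difference in log2 fold change was 5.89 ± 0.71 for EGR1 (adjusted p = 1.68e-06), 3.47 ± 0.33 for FOSL1 (5.84e-08), 2.96 ± 0.19 for JUN (3.00e-10), 1.36 ± 0.23 for FOS (8.76e-05), 1.25 ± 0.16 for JUNB (2.91e-06) and 1.64 ± 0.37 for ATF3 (0.00146). For the sparse genes it was 6.50 ± 1.505 for ARC (0.00166) and 3.84 ± 1.15 for FOSB (0.0116), and for FOSL2 it had the opposite sign (-0.33 ± 0.08, adjusted p = 0.00246). The effects in siD3 #3 were smaller than those in shD3 #1 for ARC (-3.73 ± 1.03, adjusted p = 0.00716), EGR1 (-1.86 ± 0.70, 0.0407), JUN (-0.93 ± 0.19, 4.83e-04), FOSL1 (-0.88 ± 0.29, 0.0210), FOS (-0.67 ± 0.25, 0.0403) and JUNB (-0.51 ± 0.16, 0.0196). For FOSB the difference of -1.77 ± 0.83 was not past the threshold (adjusted p = 0.0999), and FOSL2 differed by 0.57 ± 0.09 (2.14e-05). For ATF3 the sign was the other way, with 0.95 ± 0.38 (adjusted p = 0.0544), which was not past the threshold. The difference for FOSB among the 3 knockdowns was not past the threshold without sh4Control replicate 2 (adjusted p = 0.0727).

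The third siD3 #3 library stood apart from the other siD3 #3 libraries at these genes. It was the highest of the 3 for FOS, FOSB, FOSL1, FOSL2, JUN, JUNB, ATF3, EGR1 and ARC and the lowest for JUND. The SD of log2 cpm between the siD3 #3 libraries was 0.93 for EGR1, larger than in 98.6% of genes tested, 0.80 for FOSB and 0.78 for ARC, beside a median of 0.16 over all genes. Without that library 4 members were still called higher, the same number as with it. The siControl libraries also differed, with replicate 1 higher than replicate 2 for FOSB, FOSL1, JUN, JUND, ATF3, EGR1 and ARC and lower for FOS and JUNB. Without siControl replicate 2, 1 member, ATF3, was called.

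Because reads are drawn along the whole transcript, members were compared with each other by counts per kilobase of merged exons (GENCODE 44), as shares of their family. In all first groups FOSL2 led the FOS family, but its share was 82.5% ± 1.27 (SD) in sh1Control and 54.5% ± 1.23 in shD3 #1, where FOSL1 took 33.7% ± 2.38 against 12.1% ± 1.39. In shD3 #4 FOSL2 took 92.8% ± 0.966, against 84.0% ± 0.751 in sh4Control, and FOSL1 3.86% ± 0.589 against 11.6% ± 0.451. In siD3 #3 FOSL1 took 28.8% ± 5.78 against 20.9% ± 7.39 in siControl, a difference within the spread. FOS never took more than 7.73% of the family in a first library, and FOSB never more than 4.88%.

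JUN took 10.1% ± 0.159 of the JUN family in sh1Control and 24.1% ± 0.833 in shD3 #1, while JUND took 51.8% ± 1.86 and 35.6% ± 2.67. In shD3 #4 JUN took 5.70% ± 0.374 against 10.8% ± 0.518, and JUND 62.9% ± 1.59 against 48.2% ± 0.771. In siD3 #3 JUN took 20.8% ± 4.42 and in siControl 13.4% ± 3.64, and JUNB led in both. These shares depend on the length used: per kilobase of coding sequence FOSL2 still led in the same 6 groups, but JUN led the JUN family in shD3 #1, and FOSL1 took 15.0% of the FOS family there against 4.355% in sh1Control. FOS led the FOS family in both deep groups by merged exons, but by coding sequence FOSB did, at 35.9% against 28.2% for FOS in the deep controls and 33.1% against 30.7% in deep shD3 #1.

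**Figure D3:**
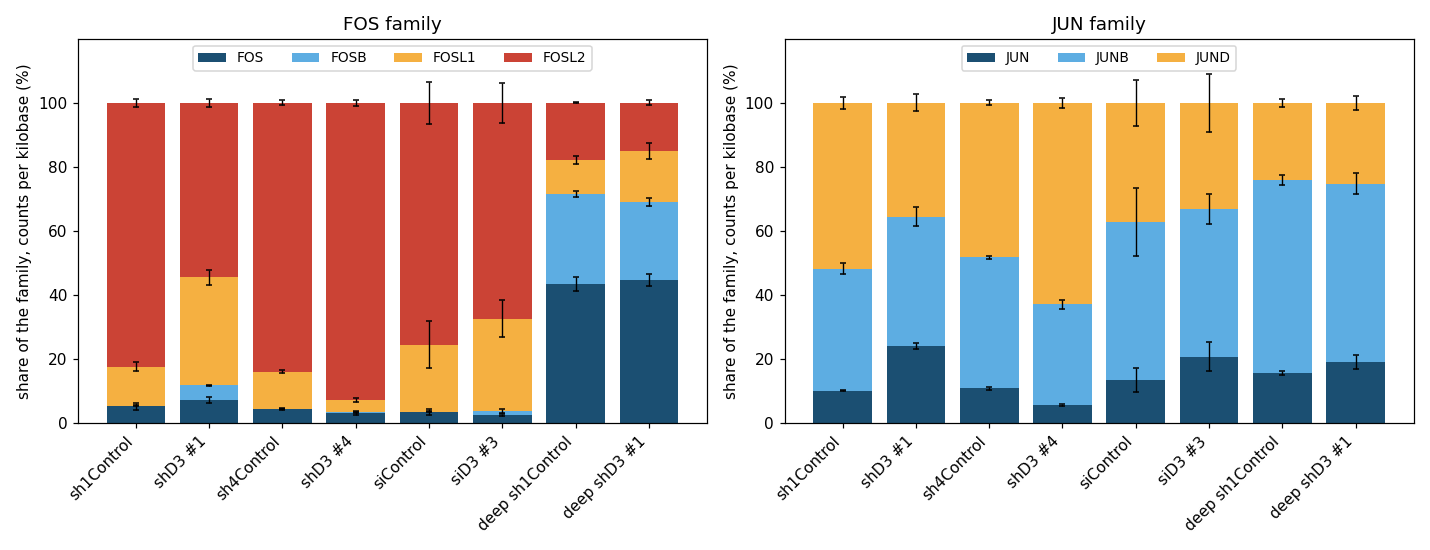
Share (y axis, %) of each gene in the summed counts per kilobase of merged exons of the FOS family (left) and the JUN family (right) in each of the 8 groups; stacked bars are group means and error bars 1 SD between libraries, drawn at the top of each segment. FOSL2 takes 54.5% to 92.8% of the FOS family in the 6 first groups and 15.1% to 17.7% in the deep groups, where FOS takes 43.4% to 44.6%; by coding length, not drawn, FOSB leads in the deep groups.

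The deep libraries of sh1Control and shD3 #1 gave another comparison of the same knockdown, in which 15.0% of all genes tested were called higher and 14.1% lower. Whether they came from the same cultures as the first libraries was not stated, so they may not be an independent repeat. Deviations from the group mean correlated at 0.0471 to 0.244 between the first and deep libraries of the same group and number, positive in all 6 pairs. There 5 of the 10 members rose: ARC, ATF3, JUN, JUND and FOSL1. With edgeR, 0 fell (1 at an unadjusted p under 0.05, 0 by DESeq2). ATF3 went from 58.4, 60.1 and 60.6 cpm to 218, 177 and 196 cpm (log2 fold change 1.73 ± 0.06, adjusted p = 1.62e-11), and JUN from 91.4, 87.8 and 93.5 cpm to 160, 169 and 191 cpm (0.93 ± 0.06, adjusted p = 4.22e-09). ARC went from 0.612, 0.298 and 0.361 cpm to 7.204, 11.5 and 4.79 cpm (4.16 ± 0.32, adjusted p = 4.60e-08). JUND, not called in the first libraries, rose here from 71.9, 74.4 and 78.1 cpm to 128, 125 and 115 cpm (0.71 ± 0.05, adjusted p = 1.64e-08). FOSL1 rose from 58.1, 64.1 and 52.9 cpm to 95.8, 102 and 77.2 cpm (0.65 ± 0.09, adjusted p = 1.36e-05). The call was lost without deep sh1Control replicate 3 (0.58) and without deep shD3 #1 replicate 2 (0.57). JUNB, at 0.54 ± 0.08 (adjusted p = 3.20e-05), was just under the fold threshold. It passed it without either of the same libraries (0.62 in both fits).

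EGR1, FOSB and FOS, which rose in the first shD3 #1 libraries, were not called in the deep ones. EGR1 was at 818, 755 and 892 cpm in the deep controls and 1083, 952 and 865 cpm in deep shD3 #1 (log2 fold change 0.23 ± 0.07, adjusted p = 0.0137). FOSB was at 440, 456 and 453 cpm and at 463, 373 and 424 cpm (-0.10 ± 0.06, adjusted p = 0.184), and FOS at 401, 369 and 422 cpm and at 474, 396 and 443 cpm (0.14 ± 0.06, adjusted p = 0.0671). The groups overlapped for all 3 genes. FOSL2 was at -0.13 ± 0.04 (adjusted p = 0.0168), again negative and again under the fold threshold.

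The level in the controls also differed between the sets. Over the 27493 nuclear genes found in both tables, and with cpm taken over those genes, EGR1 was at 1.74 ± 0.212 in the first sh1Control libraries and 986 ± 81.4 in the deep ones, a ratio of 567, the highest of the 12989 genes with a level of at least 1 on this scale in both. FOS went from 8.85 to 477 (53.9 times, place 5) and ATF3 from 2.46 to 71.6 (29.1 times, place 18). FOSB, at 0.538 and 539, had a ratio of 1002 but was under 1 on this scale in the first set and was not ranked. FOSL1 (5.74 times), JUNB (3.43 times) and JUN (3.33 times) differed less, and FOSL2 (1.39 times) and JUND (1.00 times) hardly.

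Ratios of at least 10 were found for 77 genes, or 0.593% of those compared, and the median log2 ratio was -0.16. Of the EGR and NR4A list, 3 of 5 genes compared reached that ratio, with NR4A1 at 20.8, NR4A3 at 18.2 and NR4A2 at 14.01 times. EGR2 (0.0531 in the first and 15.8 in the deep controls), EGR3 (0 and 22.2) and EGR4 (0 and 1.08) were under 1 in the first set and were not compared. Of the list of further immediate early genes 1 of 35 reached it. The median log2 ratio was 3.81 for the EGR and NR4A genes compared and 0.97 for the further immediate early genes, so smaller rises were common there. The shD3 #1 libraries of both sets differed in the same sense, with 49.8 times more EGR1, 34.2 times more FOS and 29.3 times more FOSB in the deep set, whereas ARC was at 31.6 in the first and 9.36 in the deep shD3 #1 libraries. The tables were counted on different gene models, so these ratios have no test, and single genes can differ widely between the tables: IER3, named after its values were seen, was at 91.7 in the first and 0.194 in the deep controls. Whether the sets differed in handling was not given in the sources used here, and any part of it in the ratios was not tested.

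**Figure D4:**
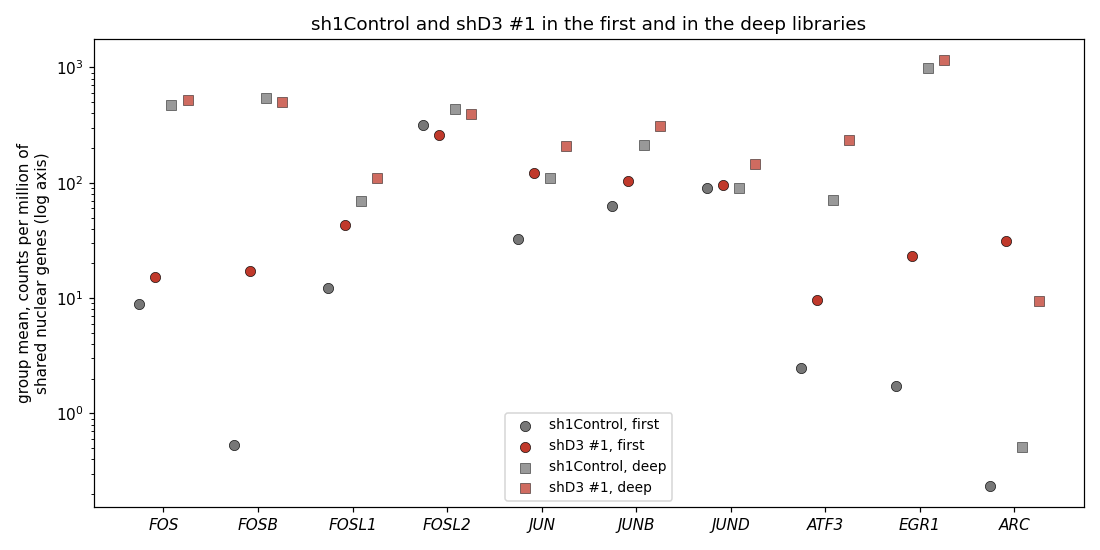
Group mean level (y axis, cpm over the nuclear genes in both tables, log axis) of each of the 10 genes in sh1Control (grey) and shD3 #1 (red) in the first libraries (circles) and the deep libraries (squares), 3 libraries per group. For EGR1, FOS and FOSB both squares lie far above both circles and close to each other, for ATF3 both squares are higher but keep the distance between control and knockdown, for FOSL2 all 4 points lie close together, and for JUND the deep shD3 #1 square (147) lies above the other 3 points (89.8 to 95.3).

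The genes around AP-1 were followed in lists. Of all genes tested, 14.5% were called higher and 14.6% lower in shD3 #1, and 8.00% and 4.49% in shD3 #4. These shares were 12.5% and 9.42% in siD3 #3, and 15.0% and 14.1% in the deep libraries. No test compared the lists with them. Of 37 further immediate early genes tested, 19 rose and 1 fell in shD3 #1, 4 rose and 2 fell in shD3 #4, and 14 rose and 1 fell in siD3 #3. In shD3 #4 both counts lay near the shares of all genes. The genes at the ends were PLK3, a stress-responsive kinase (1.92 ± 0.09 in shD3 #1), CCN1, a secreted matrix protein (-1.06 ± 0.10 in shD3 #4), and BTG2, an antiproliferative gene and p53 target (3.13 ± 0.12 in siD3 #3, and with 0.75 ± 0.10 also the highest in shD3 #4). IER5L was the lowest in shD3 #1 (-0.91) and siD3 #3 (-0.77). In the deep libraries 14 of 36 rose, KLF4 most (1.70 ± 0.10), and 1, SIK1, fell by 1.27 on the log2 scale.

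Among 21 genes known to be controlled by AP-1, 10 of 16 tested rose in shD3 #1, 11 of 18 in siD3 #3 and 6 of 16 in the deep libraries, where 2 fell, while in shD3 #4 5 of 14 fell. The shares of all genes called higher were 14.5%, 12.5% and 15.0% in the first 3 of these comparisons. Those called lower were 14.1% in the deep libraries, near the count of 2 there, and 4.49% in shD3 #4. With edgeR, 0 fell in shD3 #1 and in siD3 #3 (1 and 2 at an unadjusted p under 0.05, 0 and 1 by DESeq2), and 0 rose in shD3 #4 (2 and 0). The medians were 0.78, 0.96 and 0.44 where genes rose and -0.37 in shD3 #4. CXCL8, a chemokine with an AP-1 element in its promoter, was the lowest in shD3 #4, with a mean of 4.25 cpm against 11.4 cpm in sh4Control (-1.40 ± 0.13), and was at 44.003 against 9.85 cpm in shD3 #1 (2.15 ± 0.11) and 108 against 26.3 cpm in siD3 #3 (2.02 ± 0.30). MMP1, the interstitial collagenase and a textbook AP-1 target, had the highest log2 fold change of the list in shD3 #1, siD3 #3 and the deep libraries, from 1, 2 and 4 counts over the control libraries to 102, 98 and 46 over the knockdown libraries. The count ratio was 132 with an interval of 23.2 to 5264 in shD3 #1. IL6 was the lowest in the deep libraries (-0.71).

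Most genes of a list that reports on ERK signalling rose in shD3 #1, as EGR1 and FOSL1 did. The counts below stand against 14.5% of all genes called higher and 14.6% lower in shD3 #1, and 8.00% and 4.49% in shD3 #4. The shares were 12.5% and 9.42% in siD3 #3, and 15.0% and 14.1% in the deep libraries, and no test compared the lists with them. Of 10 ERK output genes, 9 rose in shD3 #1 (median 0.99) and 7 in the deep libraries (median 0.73), where edgeR called 0 lower in both (0 at an unadjusted p under 0.05, and 0 by DESeq2). In shD3 #4, 1 rose and 1 fell (median -0.29), but at an unadjusted p under 0.05 alone 1 was higher and 8 were lower. In siD3 #3, 3 rose and 1 fell (median 0.27), with 4 higher and 1 lower at an unadjusted p under 0.05. DUSP6, the ERK phosphatase that is itself induced by ERK, led in shD3 #1 with 45.4 against 12.1 cpm (1.91 ± 0.07). EPHA4 led in the other 3 comparisons (1.18 in shD3 #4, 1.00 in siD3 #3, 1.90 in deep shD3 #1). EPHA2 was the lowest in shD3 #4 (-0.91) and ETV4, an ETS factor downstream of ERK, in siD3 #3 (-0.95). Of the MAP kinase feedback inhibitors, which overlap that list, 8 of 17 rose and 3 fell in shD3 #1, 3 of 17 rose and 1 fell in shD3 #4. Of the same list, 7 of 17 rose in siD3 #3 (0 fell in edgeR, 0 at an unadjusted p under 0.05 and 0 by DESeq2), and 8 of 16 rose and 1 fell in the deep libraries. DUSP9 was the lowest in shD3 #1 (-1.98), shD3 #4 (-0.96) and the deep libraries (-1.80), and the highest were DUSP6, DUSP10 (0.92 in shD3 #4 and 1.81 in the deep libraries) and SPRED3 (1.44 in siD3 #3).

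The counts of the kinases and SRF partners upstream stand against 14.5% of all genes called higher and 14.6% lower in shD3 #1, 8.00% and 4.49% in shD3 #4, 12.5% and 9.42% in siD3 #3, and 15.0% and 14.1% in the deep libraries; no test compared them with these shares. Of the MAP kinase cascade, 2 rose and 2 fell of 24 tested in shD3 #1, 2 fell of 25 in shD3 #4 with 0 called higher (4 at an unadjusted p under 0.05, 0 by DESeq2). In the same list 3 rose and 1 fell of 26 in siD3 #3, and 2 rose and 3 fell of 25 in the deep libraries. The ends were NRAS (0.76) and RPS6KA4 (-0.88) in shD3 #1, RPS6KA2 (3.10) and MAP2K1 (-0.68) in siD3 #3, and RPS6KA2 (0.97) and MAPK11 (-0.85) in the deep libraries. Of 8 SRF and ternary complex factor genes tested, ELK3 rose (0.63) and ELK4 fell (-1.03) in shD3 #1, and ELK4 fell in the deep libraries (-0.75). In shD3 #4 and siD3 #3 edgeR called 0 of the 8 (4 and 6 at an unadjusted p under 0.05, and 0 by DESeq2).

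Of the further bZIP genes, which can pair with members, 4 of 16 rose and 2 fell in shD3 #1, and 1 of 15 rose and 1 fell in shD3 #4. In siD3 #3, 4 of 16 rose and 1 fell, and in the deep libraries 3 of 16 rose and 2 fell. These counts too are to be read beside the shares of all genes given above. BATF3 was the lowest in shD3 #1 (-1.40) and siD3 #3 (-0.65), JDP2 in the deep libraries (-0.91) and MAFF in shD3 #4 (-1.18), where BATF2 was the highest (1.08; 0 called higher by DESeq2). Of 9 regulators of AP-1 protein, 1 rose and 3 fell in shD3 #1, with FBXW7, a ubiquitin ligase subunit that targets JUN, the highest (0.90) and DET1 the lowest (-1.05). FBXW7 was also the 1 that rose in siD3 #3 (1.26), and edgeR called 0 of the 9 in shD3 #4 and in the deep libraries (2 and 8 at an unadjusted p under 0.05, 0 by DESeq2).

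Markers that could bear on these levels were read beside them. None of the heat shock genes tested was called higher: edgeR called 0 of the 12 tested higher in shD3 #1 (2 at an unadjusted p under 0.05), in shD3 #4 (1) and in siD3 #3 (2), and 0 of 10 in the deep libraries (3), with 0 by DESeq2 in all 4. HSPA1A and HSPA1B had 0 counts in all deep libraries and could not be read there. In the first sh1Control libraries they were at 80.8 and 66.4 cpm over the nuclear genes in both tables. HSP90AA1 fell in shD3 #1 (-1.06), HSPD1 in siD3 #3 (-0.62) and HSPE1 in the deep libraries (-1.51). All 11 A549 and epithelial markers were tested in every comparison, with summed levels of 11821 to 19928 cpm in the first libraries. KRT19 was the highest in shD3 #1 (1.95) and siD3 #3 (1.41), AKR1C1 in shD3 #4 (1.02) and EPCAM in the deep libraries (1.89). CDH1 was the lowest in shD3 #1 and the deep libraries (-1.39 in both) and KRT7 in shD3 #4 (-0.83). The summed level of 8 fibroblast markers was low but moved with the knockdown, from 8.47 to 10.5 cpm in sh1Control to 18.1 to 20.1 cpm in shD3 #1 and from 6.76 to 10.2 to 12.5 to 15.5 cpm in shD3 #4. It went from 4.90 to 7.14 to 9.19 to 11.8 cpm in siD3 #3, and from 10.9 to 11.9 to 32.2 to 33.9 cpm in the deep libraries. The sum does not stand for each marker: in shD3 #1, 3 of the 5 tested were called higher. Over the nuclear genes in both tables, THY1 went from 2.46 in sh1Control to 1.93 cpm in shD3 #1. PDGFRB went from 0.207 to 0.0658 cpm there, and DCN was at 0 in both groups. COL3A1 was the highest of the fibroblast markers in shD3 #1 (3.45), shD3 #4 (1.77) and the deep libraries (5.63), LUM in siD3 #3 (2.46), and THY1 the lowest in the deep libraries (-1.98). The 7 blood and endothelial markers summed to 2.55 to 6.48 cpm in the first libraries and 5.07 to 7.56 cpm in the deep ones, with CD14 called lower in shD3 #1 (-0.79) and CDH5 higher in shD3 #4 (1.64) and in the deep libraries (1.21). The part of these markers in the levels of the members was not tested.

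The genes whose log2 cpm over the 17 first libraries followed each member most closely were read off as a description, since the points share groups, controls and sequencing sets, and with no test. Among 12841 genes, RIN1 (Pearson r = 0.98), JUN (0.98) and ZYX (0.97) came first for FOSL1, and ABLIM3, PEAR1 and OXTR (0.98 each) for JUN. HIPK3 (0.99), PLEKHM1 (0.98) and ZBTB43 (0.98) came first for ATF3. SPRY4 (0.97), ADAM9 and EXTL3 (0.96 each) came first for EGR1, and TNFSF9 (0.99), LONRF1 and TMEM87B (0.98 each) for ARC. For FOSB they were IL1RAP (0.98), AADACP1 and CHPF2 (0.97 each), and for FOSL2 TNFAIP1, DDIT4 and HS1BP3 (0.97 each). For JUNB they were RBM24 (0.97), LINC00973 (0.96) and FGF2 (0.95), for FOS CYB5R3 (0.92), APBB2 and ZNF26 (0.91 each), and for JUND KCNJ2 (0.88), GPX2 and TPD52L1 (0.87 each). Between the members, JUN and FOSL1 (0.98), FOSB and ARC (0.96), FOSL1 and JUNB (0.91), and EGR1 and ARC (0.90) were the 4 closest pairs, whereas FOS and FOSL2 were at -0.70 and JUND was at -0.51 with JUNB. Over the 6 deep libraries, JUND was instead at 0.95 with JUN and 0.99 with ATF3, and FOSB at -0.65 with ARC.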

How the data were processed

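Of A549 RNA, 17 first and 6 deep libraries were analysed. Per the sources used here, the authors trimmed reads with Trimmomatic 0.40 and aligned them with STAR 2.7.10a to GRCh38.p14, and they deposited raw counts per gene in a table for each set; the strand setting was not stated. The tables name genes differently, and 61757 of 61806 gene identifiers of the first table were matched to symbols. Each knockdown was tested against its own control within a table, over all genes left by edgeR's filterByExpr, with edgeR 4.0.16 (TMM, quasi-likelihood, limma 3.58.1, R 4.3.3) and Benjamini-Hochberg adjustment; calls needed an adjusted p under 0.05 and a log2 fold change over 0.585 in size. The difference between knockdowns was an interaction in 1 model of the 17 first libraries. Replicate numbers were checked for pairing: deviations of same-numbered knockdown and control libraries correlated at -0.108 to 0.142, with no comparison over 0.1 in every pair, so no block was used. Alternatives were DESeq2 1.42.0, its size factors, other filters and thresholds, and leaving out each library. The members and the 13 further lists were chosen with earlier results of these data known. Named genes were the members, the highest and lowest called gene of each list, and the 3 genes most like each member. Some genes that this rule names are not reported here. On simulated data, changes of 1 on the log2 scale were recovered in 91.2% of cases for shD3 #1, 90.6% for shD3 #4, 68.5% for siD3 #3 and 78.6% for the deep libraries. Promoter sequences were RefSeq's. Depth limits genes of few counts; intervals and floors (3 counts) cover counting error only.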

Additional observations from a re-analysis of the deposited data

Results flagged for a closer look

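In the model of the 17 first libraries the effect differed among the 3 knockdowns, by the test of the difference itself (edgeR, Benjamini-Hochberg adjusted over 18672 genes), for 9 members. The adjusted p was 4.18e-10 for JUN, 9.59e-08 for FOSL1, 3.54e-06 for EGR1, 6.54e-06 for JUNB, 4.24e-05 for FOSL2, 4.65e-05 for ATF3, 0.000226 for FOS, 0.000585 for ARC and 0.0142 for FOSB. The fitted log2 fold changes in shD3 #1, shD3 #4 and siD3 #3 were 1.87, -1.09 and 0.94 for JUN, and 3.72, -2.17 and 1.86 for EGR1. Since 52.4% of all genes tested differed as well, the count of 9 is to be read beside that share. Groups of 2 or 3 libraries were too small to look for single outlying libraries by a fixed rule.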

How the results depend on the processing

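Of 544 recomputed values of single members, 505 kept their direction and their side of the threshold, 25 gained a call, 11 lost one and 3 changed sign. A member removed by a filter has no value and is not counted there. With at least 10 counts in every library, FOSB and ARC were removed in shD3 #1 and siD3 #3, and EGR1 in shD3 #4 and siD3 #3. Members called in shD3 #1 were then 6, against 8. The sign changes were in siD3 #3, none of them called: leaving out 1 library gave -0.077 to 0.303 for FOS and -0.070 to 0.490 for JUNB (lowest without siControl replicate 1), and -0.0015 to 0.322 for JUND (lowest without siControl replicate 2). With a log2 threshold of 1, 2280, 718, 2125 and 2878 genes were called in the shD3 #1, shD3 #4, siD3 #3 and deep comparisons, in that order, and by adjusted p alone 9295, 6725, 5622 and 11741, against 4785, 2061, 3739 and 5461; in shD3 #4 the split of higher and lower was then 3292 and 3433, against 1320 and 741. Members called in shD3 #4 were 3, but 2 with at least 10 counts in every library and 6 by adjusted p alone. In siD3 #3 they were 4, but 2 with at least 10 counts in every library and 6 with DESeq2, with no filter or in 1 fit of all 17 libraries. In deep shD3 #1 they were 5, but 2 with a threshold of 1 and 8 by adjusted p alone. Leaving out 1 library gave 4675 to 4902, 1854 to 2377, 2589 to 4110 and 5194 to 5713 genes in the 4 comparisons, and 8 to 8, 3 to 5, 1 to 5 and 5 to 5 members; 5 in shD3 #4 came without sh4Control replicate 3 and 1 in siD3 #3 without siControl replicate 2. The members differing among the knockdowns were then 8 to 9. Where siControl was left with 1 library, that library was assumed to vary like the siD3 #3 libraries. With a replicate block, 8, 3, 6 and 5 members and 4772, 2060, 4270 and 5296 genes were called. FOSL1 (0.65, edgeR adjusted p = 0.00665) and EGR1 (1.09, 0.0481) were gained in siD3 #3. The third siD3 #3 library has no siControl library of its number, so under the block it did not inform the fold change. Without that library and without a block the values were 0.60 and 1.05, neither called. The shared numbers do not pair the libraries. FOSL2 led its family in 6 groups by either gene length. Where no cause is named, the cause was not tested. Depth limits ARC, FOSB and EGR1 in the controls.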
